A study of Rattus norvegicus with 35 samples.

Results

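Thrombospondins and matricellular proteins are secreted proteins of the extracellular matrix that bind cells, growth factors and other matrix components. The 9 genes described here, Thbs1, Thbs2, Thbs4, Tnc, Postn, Ctgf, Cyr61, Fn1 and Vcan, were chosen by name with their log2 levels in the 3 age groups already known, so that their differences between these groups are a description and were not tested as a finding. Of the 9 genes, 7 had 10 probes carrying the gene's symbol among the 41012 different probes of the array. Vcan had 2 more probes under its older symbol Cspg2, which the rat reference table of RefSeq pairs with Vcan, and Tnc was not analysed here because no probe was matched to it. In all, 12 probes of 8 genes are described.

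RNA of the olfactory epithelium of Brown Norway rats was labeled with 1 dye and hybridized on 35 Agilent whole rat genome arrays from 27 rats. The newborn group comprised 19 pups of unrecorded sex, aged 3 to 5 days, with 1 array each from one side of the nose. Litter L1 gave 4 pups, and 5 pups each were taken from the other 3 litters (L2 to L4). The adult group comprised 4 males aged 9 weeks (rats 13 to 16), and the old group 4 males aged 22 months (rats 17 to 20). Each adult or old rat gave 2 arrays, for RNA samples A and B, which were averaged. The labels name no treatment, and the newborn group differs from the others in sampling as well as in age.

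A level is the log2 of the background-subtracted intensity of a probe over the median intensity of its array, so that 0 is the array median. Newborn means are means of the 4 litters, with the SD between litter means. Above background means here a positive and significant signal that cleared the local background well and came from a uniform, unsaturated spot. The median intensity of an array ranged from 46.0 to 96.5 in newborn, from 88.7 to 179 in adult and from 40.2 to 59.8 in old rats. Between 24484 and 28361 probes of an array were above background in newborn, between 25273 and 28020 in adult and between 25275 and 27426 in old rats. Scanning of the 10 slides took 5 days. Of these, 2 held adult rats only, 1 held L1 together with the old rats, and the remaining pups (L2 to L4) followed on the last 2. For adult rats the scan day, and an earlier software release, cannot be told apart from age.

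Matricellular proteins do not mainly build the scaffold of the matrix but modulate how cells attach to it, move in it and receive growth factors. Many are made at high levels during development and again during repair, by fibroblasts, bone and cartilage cells, muscle and vessels. Beneath the olfactory epithelium lies a lamina propria with fibroblasts, vessels, glands and nerve bundles, resting on the cartilage and bone of the turbinates, and dissected epithelium usually carries part of it.

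The tissue label was checked against defining markers. Omp, the olfactory marker protein of mature sensory neurons, was above background on all 35 arrays, and its mean level rose from 10.25 ± 0.17 (SD, n = 4 litters) in pups to 11.40 ± 0.14 (SD, n = 4) in adult rats and 12.46 ± 0.14 (SD, n = 4) in old rats. Gnal, the G protein subunit of odorant transduction, had levels of 6.64 ± 0.28 (SD, n = 4 litters), 8.67 ± 0.17 (SD, n = 4) and 8.89 ± 0.19 (SD, n = 4). Both were thus present in every group and lowest in newborn rats.

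Thbs2, a secreted inhibitor of blood vessel growth that also shapes collagen fibrils, was high in pups and low in old rats. Its brightest probe lies on chromosome 1 from 53587618 to 53587677 (build rn3, as given in the files). In the pups its level was 4.84 in the lowest, 6.06 in the median and 6.41 in the highest animal. The 4 adult rats had levels of 2.49, 3.35, 2.97 and 3.70, and the 4 old rats 0.83, 0.20, 0.93 and 0.88. Every pup was above every adult rat and every adult rat above every old rat, with no overlap. The means were 5.93 ± 0.31 (SD, n = 4 litters), 3.13 ± 0.52 (SD, n = 4) and 0.71 ± 0.34 (SD, n = 4). The level was 6.99-fold higher in newborn than in adult rats, a log2 difference of 2.81 (standard error 0.21), or 2.65 relative to the median of all transcripts. It was 37.4-fold higher in newborn than in old rats (log2 difference 5.22) and 5.35-fold higher in adult than in old rats, where the log2 difference was 2.42 (standard error 0.27), or 2.61 relative to all transcripts. With normexp background correction and quantile normalization these 2 differences were 4.33 and 1.71. The other probe of Thbs2 (chromosome 1, 53592096 to 53592155) gave log2 differences of 3.57, 5.57 and 1.99 for pups over adult rats, pups over old rats and adult over old rats, in the same directions.

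Thbs4, a thrombospondin with 5 subunits known from tendon, muscle and injured tissue, ran the other way. Its probe has coordinates on chromosome 2 from 22931395 to 22931981, so that its 60 bases are spread over 587 bases of the genome. The pups ranged from 4.24 to 6.04 with a median of 4.73. Adult rats had levels of 6.50, 6.87, 6.39 and 6.69, and old rats 8.93, 7.79, 9.01 and 8.69. Again no group overlapped another, but here every old rat was above every adult rat and every adult rat above every pup, including the highest pup, rat 11 of L1. The means were 4.81 ± 0.13 (SD, n = 4 litters), 6.61 ± 0.21 (SD, n = 4) and 8.61 ± 0.56 (SD, n = 4). The log2 difference was −1.80 (standard error 0.25) in newborn against adult rats and −1.99 (standard error 0.32) in adult against old rats, or −1.96 and −1.80 relative to all transcripts. Newborn and old rats differed 13.9-fold. With quantile normalization the adult against old difference was −1.50.

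Thbs1, which binds the receptors CD36 and CD47 and can activate latent TGF-beta, was a faint probe whose coordinates are not given in the sources used here. It was above background on 13 of 19 newborn, 8 of 8 adult and 2 of 8 old arrays, and it is not among the transcripts expressed in every group. Pups ranged from −3.54 to −1.24 with a median of −2.37. Adult rats had levels of −1.31, −1.03, −1.04 and −1.24, and old rats −2.52, −2.56, −3.02 and −2.24. Adult rats were the highest, although the highest pup, of L2, lay within their range, and the old rats lay within the range of the pups. The means were −2.32 ± 0.58 (SD, n = 4 litters), −1.16 ± 0.14 (SD, n = 4) and −2.58 ± 0.32 (SD, n = 4). The log2 difference was −1.17 in newborn against adult rats, but −0.22 with the normexp background and quantile normalization. No size is given against old rats, which were near background.

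Fn1, or fibronectin, is a structural glycoprotein through which integrins hold cells to the matrix. Its brightest probe lies on chromosome 9 from 70849298 to 70849357. The lowest, median and highest pup had levels of 6.15, 7.04 and 7.76. Adult rats had 4.48, 5.20, 5.03 and 5.80, and old rats 3.99, 3.19, 3.92 and 3.38. The order was newborn, adult and old, with no overlap between neighbours. The means were 6.96 ± 0.39 (SD, n = 4 litters), 5.13 ± 0.54 (SD, n = 4) and 3.62 ± 0.40 (SD, n = 4). The level was 3.57-fold higher in newborn than in adult rats (log2 difference 1.84, or 1.68 relative to all transcripts) and 10.2-fold higher than in old rats. Between adult and old rats the log2 difference was 1.51 (standard error 0.23), or 1.70 relative to all transcripts. At its other probe (chromosome 9, 70849878 to 70850482) this last difference was 0.93, and there the adult and old rats overlapped.

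Postn, or periostin, binds collagen and fibronectin and is known from the periosteum and other connective tissues under load. Its probe has coordinates on chromosome 2 from 143510755 to 143511791. The pups ranged from 3.78 to 5.08 with a median of 4.48. Levels were 3.23, 3.92, 3.50 and 4.39 in adult rats and 2.12, 1.07, 1.74 and 1.61 in old rats. Newborn and adult rats overlapped, with 8 pups and 2 adult rats in the shared range, whereas every old rat was below every other rat. The means were 4.44 ± 0.34 (SD, n = 4 litters), 3.76 ± 0.51 (SD, n = 4) and 1.64 ± 0.44 (SD, n = 4). Newborn exceeded adult rats by 0.67 (standard error 0.21), or 0.52 relative to all transcripts, and this call was lost under 3 other scalings, with litter means as replicates, in the methods' t-test, with slide or scan day as a block and without adult rat 13 or 15. Against old rats the level was 6.96-fold higher in newborn and 4.36-fold higher in adult rats, the latter a log2 difference of 2.13, or 2.32 relative to all transcripts. With the normexp background and quantile normalization, newborn exceeded old rats by 2.24.

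Vcan, or versican, is a large chondroitin sulfate proteoglycan that binds hyaluronan in loose and developing tissue. Its brightest probe lies on chromosome 2 from 19634942 to 19635001, and it was above background on 19 of 19 newborn, 7 of 8 adult and 1 of 8 old arrays. The lowest, median and highest pup had levels of 0.86, 1.70 and 3.71. Adult rats had −2.18, −1.42, −1.35 and −0.82, and old rats −2.11, −2.92, −2.57 and −2.95. All pups lay above all adult and old rats, and 1 adult and 1 old rat overlapped. The means were 1.82 ± 0.62 (SD, n = 4 litters), −1.44 ± 0.56 (SD, n = 4) and −2.64 ± 0.39 (SD, n = 4). The log2 difference of newborn against adult rats was 3.26, or 1.49 with the normexp background and quantile normalization. No size is given against old rats, where the probe was near background. The other probe (chromosome 2, 19633100 to 19633159) was above background on 19 of 19 newborn, 2 of 8 adult and 1 of 8 old arrays, and all pups were above all adult and old rats there too.

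Ctgf and Cyr61 belong to the CCN family, which links integrins and growth factors at the cell surface, and both are well known targets of YAP and TAZ, co-activators that respond to mechanical tension. Their levels varied less with age. The probe of Ctgf lies on chromosome 1 from 21328927 to 21328986, and the pups ranged from 5.37 to 6.72 with a median of 5.94. Adult rats had levels of 5.75, 6.03, 6.03 and 5.97, and old rats 6.46, 6.25, 6.35 and 6.71. All old rats were above all adult rats, and the pups overlapped both groups. The means were 5.99 ± 0.32 (SD, n = 4 litters), 5.94 ± 0.13 (SD, n = 4) and 6.44 ± 0.20 (SD, n = 4). Newborn against adult rats the log2 difference was 0.05, which turned to −0.35 with quantile normalization. Newborn against old rats it was −0.45 (standard error 0.15). Adult against old rats it was −0.50 (−0.30 relative to all transcripts), but only −0.07 with quantile normalization.

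Cyr61 has 2 probes on chromosome 2, and they did not give the same calls. At the brighter one, from 243811128 to 243811187, pups ranged from 2.81 to 4.61 with a median of 3.53. Adult rats had levels of 3.19, 3.75, 4.05 and 3.94 and old rats 4.42, 4.10, 4.47 and 4.32. Every old rat was above every adult rat, by 0.05 between the nearest animals. Newborn and adult rats overlapped, and 15 pups lay above the lowest adult rat. The means were 3.59 ± 0.18 (SD, n = 4 litters), 3.73 ± 0.38 (SD, n = 4) and 4.33 ± 0.17 (SD, n = 4), and none of the log2 differences of −0.15, −0.74 and −0.59 was called in the main limma fit. Between newborn and old rats the difference was called under 3 other scalings and in the methods' t-test. It was also called with every array or litter mean as a replicate and with the mean over the probes. The same held for L1 against old rats within their scan day, and without rat 10, 24, 28 or 34. At the other probe, from 243811662 to 243811721, newborn rats were lower than adult rats by a log2 difference of −1.02 and than old rats by −1.20, both called. There the adult against old difference was −0.18. Over the 27 rats the deviations from the group means at the 2 probes had r = 0.93, so that they ranked the rats of a group alike while placing the age groups differently.

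**Figure D1:**
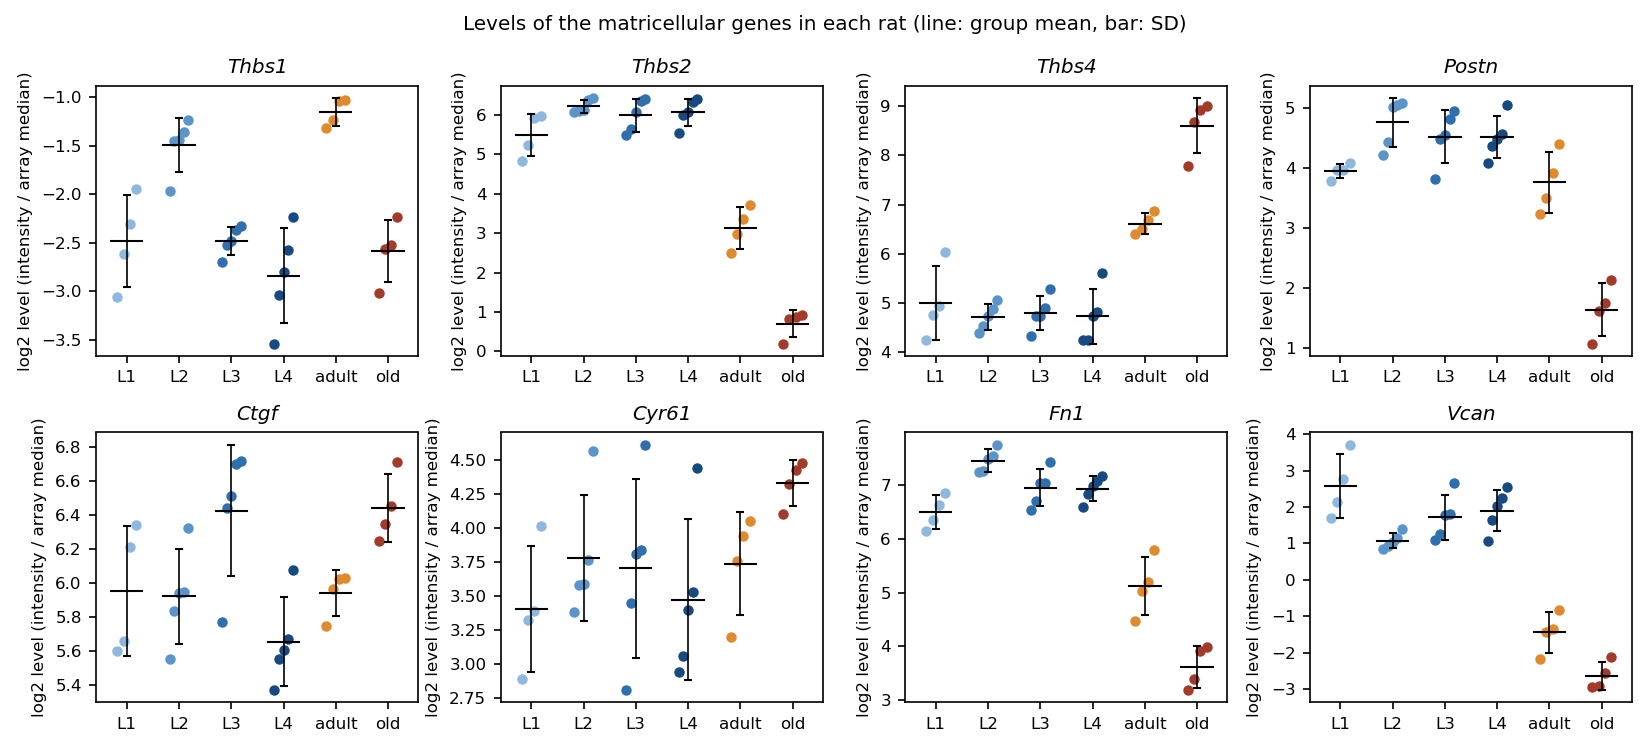
Level of each gene in each rat, as log2 of the intensity over the array median (vertical axis), for the 4 litters, adult and old rats (horizontal axis; line, group mean; bar, SD). Thbs2 and Fn1 step down from newborn to adult to old rats with no overlap, Thbs4 steps up, and the pups overlap the adult rats for Thbs1, Postn, Ctgf and Cyr61.

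Of the 8 genes with a probe, 6 were expressed in every litter, in adult and in old rats, and were therefore in the limma fit over 23668 transcripts. A call is an adjusted p under 0.01 over all of these. In newborn against adult rats, 4 of the 6 were called, 3 higher (Thbs2, Fn1 and Postn) and 1 lower (Thbs4), where 65.9% of all transcripts were called, 39.6% higher and 26.3% lower. In newborn against old rats the same number was called, with the same genes higher and Thbs4 lower, beside 59.5% of all transcripts, 27.7% higher and 31.8% lower. In adult against old rats Thbs2, Fn1 and Postn were again called higher and Thbs4 lower, beside 47.0% of all transcripts, 15.3% higher and 31.7% lower. As the genes were selected on these levels, nothing is read from these counts. The comparisons also share their samples.

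Some of the 6 tested genes were called with a fold of at least 5, and their number differed between the comparisons. In newborn against adult rats this was Thbs2 alone, where 1.44% of all transcripts were called higher and 0.735% lower by at least 5-fold. In newborn against old rats it was Thbs2, Postn and Fn1 higher and Thbs4 lower, beside 1.76% and 1.06% of all transcripts. In adult against old rats it was Thbs2 alone, beside 0.22% and 0.114%. With the normexp background and quantile normalization, Postn in newborn against old rats (2.24) and Thbs2 in adult against old rats (1.71) were under 5-fold, as was the latter at its other probe (1.99). The rats of the groups did not overlap for 3 of the 6 genes in newborn against adult, 4 in newborn against old and 6 in adult against old rats, beside 38.7%, 31.8% and 57.7% of all transcripts.

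The scaling of the arrays bears on small differences. The median log2 difference of all transcripts was 0.16 in newborn against adult, −0.04 in newborn against old and −0.19 in adult against old rats, and −0.03, −0.05 and −0.02 with quantile normalization. In newborn against adult rats 9377 transcripts were called higher and 6217 lower, but 7492 and 8339 with quantile normalization and 7432 and 8173 with the normexp background in addition. In adult against old rats 3622 were called higher and 7493 lower, but 5416 and 5348, or 5302 and 5526, under the same settings. Among the genes described here, the direction turned only for Ctgf, between newborn and adult rats. For newborn against old rats, the 75th percentile, quantile normalization and the normexp background each gave 3 genes higher and 3 lower in place of 3 and 1, because Ctgf and Cyr61 were then called lower.

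**Figure D2:**
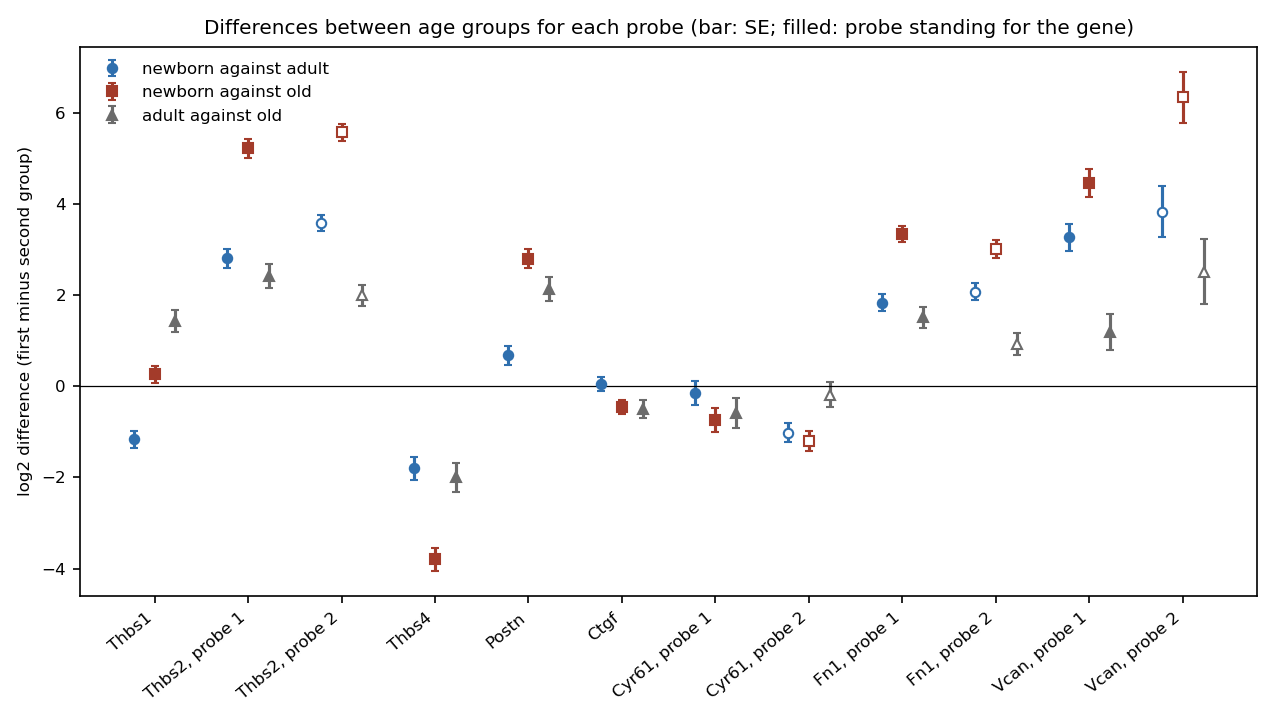
Log2 difference between age groups (vertical axis, first minus second group) for each of the 12 probes (horizontal axis; bar, standard error; filled symbol, probe that stands for the gene). Thbs2, Fn1 and Postn lie above 0 in all 3 comparisons and Thbs4 below 0, the values of Thbs1 and Vcan against old rats rest on signals near background, while Ctgf lies at 0.05 in newborn against adult rats (−0.35 with quantile normalization) and below 0 in the other 2 comparisons.

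Of the groups of different age, only L1 and the old rats shared a scan day. Within that day, L1 exceeded the old rats by 4.78 for Thbs2, 2.31 for Postn and 2.88 for Fn1, and was lower by a log2 difference of −3.61 for Thbs4, each with no overlap of 4 pups and 4 old rats. All 4 pups of L1 were also above all old rats for Vcan, which was near background in old rats. For Cyr61 the difference was −0.93, also with no overlap. For Ctgf (−0.49) and Thbs1 the animals overlapped.

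Litters differed from one another for some genes. Thbs1 was highest in L2, where 5 of 5 arrays were above background, and lowest in L4, where 2 of 5 were, so that no size is given. Fn1 was highest in L2 (7.46) and lowest in L1 (6.50), and Postn likewise (4.76 and 3.95). The fibroblast markers described below had their highest and lowest median sums in the same litters (12.51 and 11.65), and their part was not tested. For Vcan the highest mean was in L1 (2.58) and the lowest in L2 (1.07), but at its other probe L4 was highest (1.46) and L2 lowest (0.53). For Thbs4 the litter means lay within 0.28 of each other, less than the mean SD within litters of 0.48, and Cyr61 at its brighter probe also varied more within litters (0.54) than between their means (0.37). Most pups of a litter shared 1 slide, so that litter and slide can hardly be told apart.

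The RNA samples A and B of a rat also differed. In adult rats, sample A was lower than sample B in 4 of 4 animals for Thbs2, Postn, Fn1 and Vcan, and the median gap was 0.70, 0.77, 0.52 and 0.77, in that order. The largest gap for Fn1 was 1.38, which is more than the SD between adult rats of 0.54. For Thbs4 sample A was lower in 3 of 4 adult rats, with a median gap of 0.70 and a largest gap of 1.58, beside an SD between adult rats of 0.21. In old rats sample A was lower in 4 of 4 animals for Thbs2, Thbs4, Ctgf and Fn1, with median gaps of 0.50, 0.30, 0.18 and 0.32. Which of A and B is the left side is not given in the sources used here, and no share over all transcripts stands beside these counts.

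The genes were also compared over the 27 rats, with each level taken as its deviation from the mean of its litter or group. Of the 28 pairs of genes, 22 had a positive Pearson correlation, the median r was 0.23, and 8 pairs had r above 0.5, or 6 without the 2 farthest rats. These are descriptions over rats that share slides and arrays, and no p is given. Thbs2 and Fn1 had r = 0.80 and Spearman's rho = 0.74, and r = 0.74 without the 2 rats farthest from the median of Thbs2. Postn and Fn1 had r = 0.73 and rho = 0.67, and Thbs2 and Postn r = 0.60 and rho = 0.52. For Ctgf and Cyr61, r was 0.59 and rho 0.59, and r was 0.79 when the deviations were taken within group and scan day, but 0.40 without the 2 farthest rats. Thbs2 was as close to each of them, with r = 0.61 and rho = 0.63 for Cyr61 (r = 0.54 without the 2 farthest rats) and r = 0.58 and rho = 0.52 for Ctgf (r = 0.53 without them). Thbs4 and Vcan had r = 0.52, which was 0.65 within group and scan day but 0.29 without the 2 farthest rats. Thbs1 had its highest r with Thbs2 (0.24), which was −0.06 without the 2 farthest rats, or with Ctgf when taken within group and scan day (0.46), and the lowest r was −0.33, between Cyr61 and Vcan.

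The genes most like each member were found by 2 measures. For the pattern over the 6 group means, each centred on its own mean, the nearest probe to Fn1 was that of Lox, an enzyme that crosslinks collagen, at a root mean square distance of 0.09, followed by Lum, a collagen-binding proteoglycan (0.12). For Thbs2 these were Plekhk1 and Aspn (both 0.21), and for Postn Esm1 (0.14) and Fkbp7 (0.15). For Thbs4 they were Cox8h (0.16) and Or5h26b (0.21), for Vcan Pou3f1 (0.17) and Cdh22 (0.26), and for Thbs1 Il17rb (0.20) and Ppfia2 (0.23). Some of these distances rest on values near background. Plekhk1, Esm1 and Pou3f1 were above background on 0 of 8 old arrays, and Plekhk1 on 1 and Pou3f1 on 0 of 8 adult arrays. Il17rb was above background on 5 of 19 newborn and 2 of 8 old arrays, and Or5h26b on 11 of 19 newborn arrays. Ctgf was nearest to Tulp1 (0.12) and H6pd (0.14), and Cyr61 to Cachd1 (0.04) and Hebp2 (0.05).

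For the deviations of the 27 rats from their group means, Fn1 had its highest correlations with Cthrc1 (r = 0.94), a secreted protein of fibroblasts, and Scpep1 (r = 0.92). Postn had them with AW914057 (r = 0.89) and with Col3a1, a fibrillar collagen (r = 0.88), and Thbs2 with RGD1307753 (r = 0.94) and Lcp2 (r = 0.91). Thbs4 had r = 0.83 with Wif1. Vcan had its highest correlations with Svil (r = 0.87) and Kcnj8 (r = 0.84), and Thbs1 with Alox5 (r = 0.68) and Capn6 (r = 0.67), which was above background on 0 of 8 old arrays. For Ctgf they were LOC301509 (r = 0.84) and a probe named only by its identifier, and for Cyr61 AA891661 (r = 0.89) and AI511358 (r = 0.86). These values come from the top of 28804 or 28805 correlations per gene.

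Markers of other cell types differed between the age groups too. Each list is given by the log2 of its genes' summed level, as the median animal, and a lower value can reflect fewer cells of a type or less RNA per cell, which cannot be told apart in this tissue. For the 5 fibroblast genes, of which Col1a1 was the brightest, the sum was 12.08 in pups, 11.27 in adult rats and 8.79 in old rats. Of the 5, 3 were called higher in newborn than in adult rats (Col1a2, Col3a1 and Pdgfra). All 5, Col1a1 and Pdgfrb included, were called higher in newborn than in old and in adult than in old rats. Of all transcripts, 39.6% were called higher and 26.3% lower in newborn against adult rats. The shares were 27.7% and 31.8% in newborn against old rats and 15.3% and 31.7% in adult against old rats. They also stand beside the marker counts that follow. For Col3a1 the log2 difference was 4.22 between newborn and old rats. The part of these cells in the levels of Thbs2, Fn1 and Postn was not tested.

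The 4 cartilage genes, with Col2a1 the brightest, had sums of 7.82, 4.18 and 3.92. Of the 4, 3 were called higher in newborn than in adult and than in old rats (Col2a1, Col9a1 and Cnmd, not Matn1), and Col9a1 alone was called higher in adult than in old rats. The 5 bone genes, with Bglap the brightest, had sums of 9.88, 9.82 and 8.65. Of the 4 tested, Dmp1 was called lower in newborn than in adult rats, all 4 were called higher in newborn than in old rats, and Ibsp, Dmp1 and Mepe were called higher in adult than in old rats, while Sp7 was not tested. Skeletal muscle genes had sums of 7.07, 0.79 and 1.74, with Tnni2 the brightest. Acta1 was above background on 19 newborn arrays, 1 adult array and no old array, and Ckm on 19, 2 and 1, so that both were near background after the newborn age, and Tnnt3 was not tested either. Both tested muscle genes, Myh3 and Tnni2, were called higher in newborn than in adult and than in old rats. The part of cartilage, bone and muscle in the levels of the matricellular genes was not tested.

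Thbs4 is known from tendon, and the tendon marker Tnmd had median levels of 0.79 in pups, −2.12 in adult rats and −0.60 in old rats, so that it was called higher in newborn than in both older groups, unlike Thbs4, and lower in adult than in old rats (log2 difference −1.48), like Thbs4. The part of tendon in the level of Thbs4 was not tested. The 5 genes of mature olfactory sensory neurons (sums 10.52, 11.78 and 12.71, Omp the brightest) were in the same order as Thbs4, and all 5 (Omp, Gnal, Adcy3, Cnga2 and Cnga4) were called lower in newborn than in adult and than in old rats. Of these, Omp and Cnga4 were called lower in adult than in old rats. The 3 genes of sustentacular cells, Cyp2g1, Cyp2a3a and Ugt2a1 (sums 9.85, 11.20 and 11.73, Cyp2a3a the brightest), were also called lower in newborn than in both other groups, and 1 of them, Cyp2a3a, in adult against old rats. Whether neurons or supporting cells had a part in the level of Thbs4 was not tested.

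**Figure D3:**
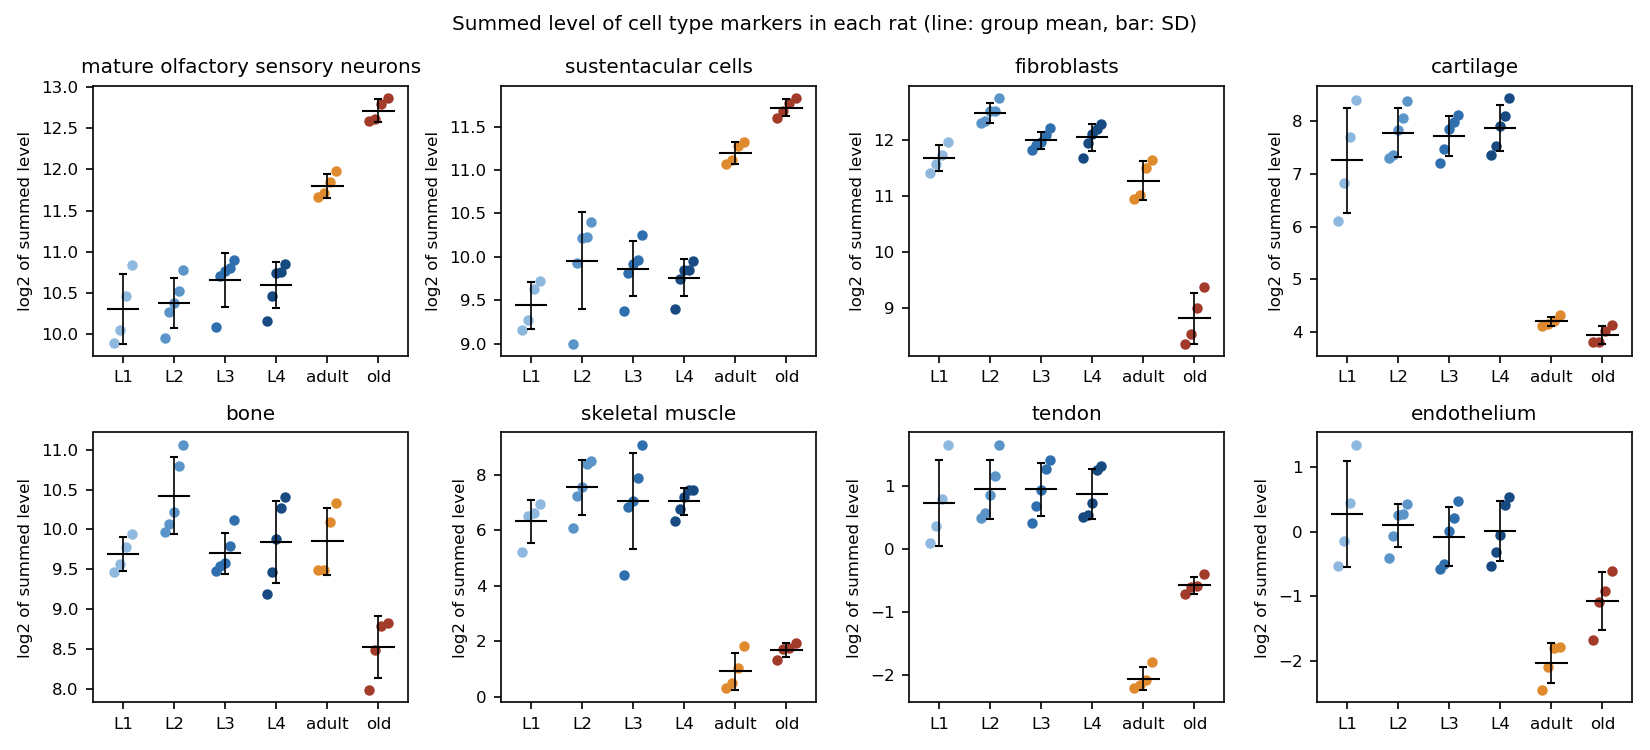
Log2 of the summed level of the marker genes of 8 cell types (vertical axes) in each rat, for the 4 litters, adult and old rats (horizontal axis; line, group mean; bar, SD). The fibroblast sum falls from a median of 12.08 in newborn to 8.79 in old rats, and the sum of the sensory neurons rises from 10.52 to 12.71.

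The remaining lists are given in brief. The 5 dividing cell genes, Mki67, Top2a, Ccnb1, Cdc2 and Pcna (sums 8.61, 6.46 and 5.97, Cdc2 the brightest), were all called higher in newborn than in adult and than in old rats, and the first 2 and Cdc2 also in adult than in old rats. Red cell genes had sums of 8.72, 5.98 and 7.60 (Alas2 the brightest), and both that were tested, Hbb and Alas2, were called higher in newborn than in adult rats and lower in adult than in old rats. In newborn against old rats Alas2 alone was called higher. Genes of platelets and megakaryocytes had sums of 3.90, 2.01 and 4.30 (Pf4 the brightest), with Ppbp and Gp9 not tested. Pf4 was called higher in newborn and in old than in adult rats. The part of blood cells in the level of Thbs1, which platelets also carry, was not tested.

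Macrophage sums were 6.39, 5.91 and 6.11 (Aif1 the brightest), with Cd68 called higher in newborn than in both other groups and Aif1 lower in newborn than in old rats, and Csf1r not called. Smooth muscle sums were 4.12, 2.77 and 3.10 (Des the brightest), with Des called higher and Myh11 lower in newborn than in both other groups, and Cnn1 not called. Of the genes of olfactory nerve glia, Sox10 was called higher in newborn than in adult rats and lower in adult than in old rats, Mbp was not called, and the probe of S100b was at the floor in every group. None of the 3 ciliated respiratory cell genes, Foxj1, Tekt1 and Dnai1 (sums 8.92, 8.45 and 9.13, Foxj1 the brightest), was called by limma in any comparison. None of the 3 endothelial genes, Pecam1, Cdh5 and Tek, was expressed in every group (sums 0.01 and −1.95 in newborn and adult rats and between −1.68 and −0.61 in old rats, Cdh5 the brightest), and none was above background on an adult array, so that vessels are covered poorly by this list.

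Genes that act with the members were followed in 5 lists, with 82 of 92 genes having a probe and 66 tested. Of the 66, 46 were called in newborn against adult rats (35 higher and 11 lower), 42 in newborn against old rats (34 higher and 8 lower) and 19 in adult against old rats (11 higher and 8 lower). Of all transcripts, 65.9% (39.6% higher and 26.3% lower), 59.5% (27.7% and 31.8%) and 47.0% (15.3% and 31.7%) were called in these comparisons. These shares are the background for the counts of each list that follow. The genes named below were selected among those called in which every rat of a group lay beyond every rat of the other, so that this holds for all of them by choice. In adult against old rats the split was 14 and 5 with the 75th percentile, 15 and 5 with quantile normalization and 12 and 5 with the normexp background.

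Other matricellular proteins formed the first list, with 16 tested of 20. In newborn against adult rats 10 were called higher and 3 lower, beside 39.6% and 26.3% of all transcripts, with a median log2 difference of 0.91, beside 0.16 for all transcripts. Fbln1, or fibulin, had mean levels of 5.30 in newborn and 2.39 in adult rats, a log2 difference of 2.92 (standard error 0.20, limma adjusted p = 3.61e-12), or 1.98 with the mean over its probes. For Tgfbi, a relative of periostin, the levels were 7.10 and 4.40 and the difference 2.70 (adjusted p = 9.67e-14). In newborn against old rats 10 were called higher and 1 lower (median 0.77), and in adult against old rats 3 were called each way (median −0.35, beside −0.19 for all transcripts).

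Spp1, or osteopontin, a secreted phosphoprotein abundant in bone, had levels of 9.38 in adult and 6.71 in old rats, a log2 difference of 2.67 (adjusted p = 5.27e-10), or 3.43 with quantile normalization. Wisp1, another CCN protein, was higher in adult rats by 1.25 (adjusted p = 5.74e-05), and this call was lost in the methods' t-test. Tnr, a tenascin of nervous tissue, was lower in adult than in old rats by a log2 difference of −1.50 (adjusted p = 1.04e-07), and Sparcl1, a relative of osteonectin, by −1.49 (adjusted p = 0.00284). The call of Sparcl1 was lost with quantile normalization (−1.04), with the normexp background, with slide or scan day as a block and without adult rat 15 or old rat 20.

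Of the cell surface receptors, 14 were tested, with 7 called higher and 3 lower in newborn against adult rats (median 0.37; 65.9% of all transcripts called), 6 higher and 4 lower in newborn against old rats (median 0.14) and 1 in adult against old rats (median −0.19; 47.0% of all transcripts called). Itga1, a collagen-binding integrin subunit, was higher in newborn than in adult rats by 1.57 (adjusted p = 2.19e-08) and Lrp1, a scavenging receptor for thrombospondins, by 0.62 (adjusted p = 0.000133), though for Lrp1 the call was lost with quantile normalization (0.40), with the normexp background (0.37) and in the methods' t-test. Cd36, a receptor of Thbs1 that is also found in some sensory neurons, was lower in newborn rats by a log2 difference of −2.37 (adjusted p = 5.35e-13), at 2.54 against 4.90 in adult rats. Cacna2d1, a calcium channel subunit that binds thrombospondins, was lower in adult than in old rats by −0.38 (adjusted p = 0.0093), a direction that turned to 0.16 with quantile normalization. This call was also lost under the other scalings, with wider filters, in the methods' t-test, with only the groups compared, with slide or scan day as a block and without adult rat 14 or 16 or any old rat but 17.

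Among ligands, receptors and regulators of TGF-beta, 15 were tested, with 5 called higher and 3 lower in newborn against adult rats (median 0.05; 65.9% of all transcripts called), 6 higher and 1 lower in newborn against old rats (median 0.25) and 2 higher and 1 lower in adult against old rats (median 0.07). Eng, a co-receptor of vessel cells, was higher in newborn than in adult rats by 1.36 (adjusted p = 2.81e-09), but by 0.64 with the normexp background. Ltbp1, which tethers latent TGF-beta to the matrix, was higher by 1.09 (adjusted p = 4.9e-12). The ligand Tgfb2 was highest in adult rats, with levels of 0.27, 1.67 and 0.62 in newborn, adult and old rats. Its log2 difference was −1.39 in newborn against adult (adjusted p = 7.86e-08) and 1.05 in adult against old rats (adjusted p = 0.000243), or −0.78 and 0.59 with the normexp background. Ltbp3 was lower in adult than in old rats by −0.44 (adjusted p = 0.00869), a call lost under every scaling tried, with either block, in the methods' t-test and without any single rat but adult rat 16.

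For the YAP/TAZ and SRF pathway, 10 of 16 genes were tested, with 4 called higher and 2 lower in newborn against adult rats (median 0.09; 65.9% of all transcripts called), 3 higher and 2 lower in newborn against old rats (median −0.01) and 1 higher and 2 lower in adult against old rats (median 0.10). Ankrd1, a YAP target and muscle protein, had levels of 0.42 in newborn and −1.84 in adult rats, a log2 difference of 2.26 (adjusted p = 4.8e-13), or 0.86 with the normexp background. Srf, the serum response factor itself, was higher in newborn rats by 1.11 (adjusted p = 7.59e-10). Amotl2, a YAP target and partner, was lower in newborn than in adult rats by −1.55 (adjusted p = 2.53e-13), or −0.88 with the normexp background, and higher in adult than in old rats by 1.09 (adjusted p = 4.3e-08). Axl, a receptor kinase, was lower in newborn rats by −0.97 (adjusted p = 5.01e-06), or −0.54 with the normexp background.

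The SRF co-activator Mkl1 was lower in adult than in old rats by −0.80 (adjusted p = 3.33e-07), or −0.36 with quantile normalization and −0.37 with the mean over its probes. Wwtr1, which is TAZ, was lower by −0.55 (adjusted p = 0.00346), a call lost with scan day as a block and without adult rat 13 or 16 or old rat 20.

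Of the partners of hyaluronan and versican and the related proteoglycans, 11 of 18 were tested. In newborn rats 9 were called higher and 0 lower than in adult rats (limma, median 1.38), beside 39.6% and 26.3% of all transcripts, and 9 higher and 0 lower than in old rats (median 1.41), and in adult against old rats 5 were higher and 1 lower (median 0.42). Fbn1, or fibrillin, had levels of 4.63 in newborn and 1.49 in adult rats, a log2 difference of 3.15 (adjusted p = 2.32e-15). Lum, or lumican, was higher by 1.81 in newborn than in adult rats (adjusted p = 8.48e-09) and by 1.65 in adult than in old rats (adjusted p = 4.76e-06), the latter call being lost in the methods' t-test. Adamts9, a protease that cuts versican, was higher in adult than in old rats by 1.34 (adjusted p = 6.3e-06), or 0.86 with the normexp background, and Hapln3, a link protein, lower by −0.60 (adjusted p = 0.00613), or −0.31 with the normexp background, a call lost with the 75th percentile, in the methods' t-test, with slide or scan day as a block, with no filter on dim probes and without adult rat 13 or old rat 17, 19 or 20.

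**Figure D4:**
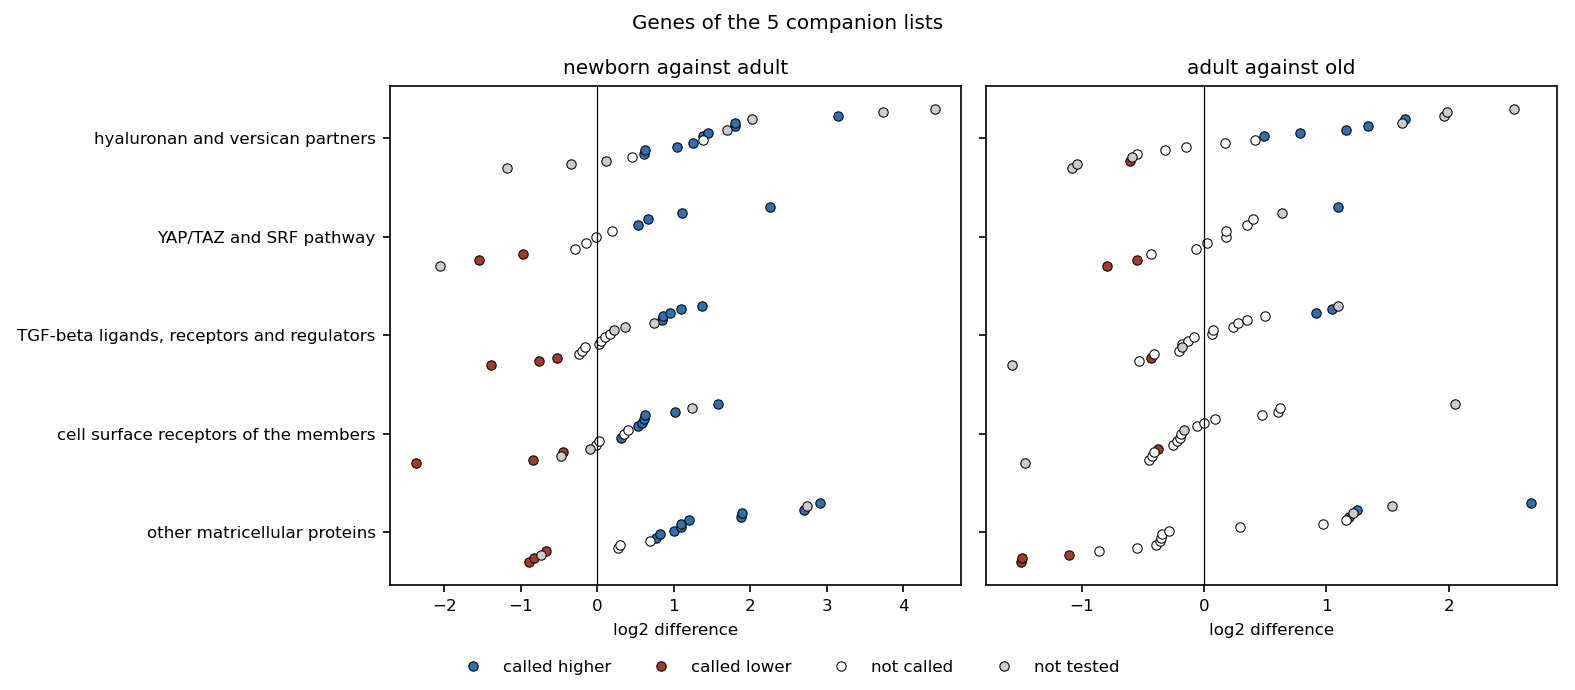
Log2 difference of each gene of the 5 lists (horizontal axis, first minus second group) in newborn against adult and adult against old rats, with genes sorted within each list (blue, called higher in the first group; red, lower; white, not called; grey, not tested). In newborn against adult rats 35 genes were called higher and 11 lower, and in adult against old rats 11 and 8 (15 and 5 with quantile normalization).

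Because Ctgf and Cyr61 are known targets of YAP and TAZ, which act through TEAD factors, the 250 bases before their starts are shown, from the RefSeq promoters of build GRCr8, in which they are named Ccn2 and Ccn1. Of the 9 genes, 7 had an entry (Thbs1, Thbs4, Tnc, Postn, Ctgf, Cyr61 and Vcan). The letters GGAATG (a TEAD motif), TGANTCA (an AP-1 motif), TATAAA and the CArG box of SRF (CC, then 6 letters A or T, then GG) were searched on both strands. Capitals mark the matches, and none overlapped another. The region of Ctgf is chr1:22624615-22624864 and that of Cyr61 chr2:237225690-237225939, both on the minus strand.
Ctgf: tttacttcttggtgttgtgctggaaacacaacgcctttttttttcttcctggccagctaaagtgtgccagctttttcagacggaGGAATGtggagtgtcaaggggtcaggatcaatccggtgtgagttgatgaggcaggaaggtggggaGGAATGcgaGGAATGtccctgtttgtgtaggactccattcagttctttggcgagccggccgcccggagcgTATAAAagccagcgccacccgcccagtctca
Cyr61: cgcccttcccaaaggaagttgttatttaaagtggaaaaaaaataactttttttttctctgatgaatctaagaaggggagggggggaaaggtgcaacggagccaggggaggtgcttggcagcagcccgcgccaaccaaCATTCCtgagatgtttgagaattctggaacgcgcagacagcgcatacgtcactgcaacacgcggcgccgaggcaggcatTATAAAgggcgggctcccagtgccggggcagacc
Ctgf held 3 matches to the TEAD motif, which began 166, 101 and 92 bases before the start, and Cyr61 held 1, at 113 bases. Among 27457 promoters of the same length, 11.8% held at least 1 such match, and 25 of them, or 0.0911%, held 3 or more. Both also held TATAAA, at 31 and 34 bases, as did Postn at 44 and Tnc at 208 bases, whereas 13.1% of all promoters did. Thbs1 and Thbs4 held 1 TEAD match each, 47 and 178 bases before the start. No member had an AP-1 match (6.36% of all promoters) or a CArG match (1.5%) in this window, which says only that these letters were not found there. A match is a description of the sequence and not a binding site.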

How the data were processed

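Background-subtracted intensity values, made by the authors with Agilent Feature Extraction 9.5.1.1 or 9.5.3.1 and deposited in the scanner files, were divided by the median of each array over all spots but controls, set to at least 0.01 and taken as log2. The deposited value table holds ratios that the authors made in GeneSpring, relative to the array median and then to the median of each gene over the arrays. All its 41012 values per array were matched to the scanner files, and for 99.8% of the probes the log2 offset was constant (SD under 0.01) once its column medians were allowed for, and the table served only as an alternative. Outlier spots were left out (890 values of 494 probes with 1 spot and 3299 values of repeated spots), as were control spots.

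A transcript was expressed when at least 0.5 of its spots were above background on at least 3 arrays of every litter and 6 of 8 adult and 6 of 8 old arrays, and 23668 transcripts passed. Arrays A and B of a rat were averaged, and limma 3.58.1 in R 4.3.3 was fitted to 27 rats in 6 groups, with the newborn mean as the mean of 4 litters. P-values were adjusted by Benjamini and Hochberg over all transcripts tested, with a threshold of 0.01. The number of arrays limits the precision. The brightest probe over all arrays stood for a gene. Named pathway genes were the 2 with the largest change each way per list and comparison, among those called and with no overlap. The members and lists were chosen with earlier results of these data known. As alternatives, arrays were scaled to the 75th percentile, by quantile normalization or after normexp with an offset of 50. Further fits used the methods' t-test, every array or litter mean as a replicate, other filters, slide or scan day as a block (correlations 0.22 and 0.248) and each rat left out. Tables and figures were made with Python 3.11.15, numpy 2.4.6, pandas 2.3.3, scipy 1.17.1 and matplotlib 3.10.9. Promoters and older symbols came from RefSeq. A few results on marker and likeness genes are not reported here.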

Additional observations from a re-analysis of the deposited data

Results flagged for a closer look

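Among the 48 pairs of a gene and a group, 1 held a rat far from the others of its group. Thbs2 in old rats was lowest in rat 18, at 0.20, where the other 3 old rats had levels from 0.83 to 0.93. Chance alone would flag about 1 in 20 groups, and the rat was kept.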

How the results depend on the processing

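Of the pathway genes called in adult against old rats, 19 in all, the count was 37 with every array as a sample, 9 with the methods' t-test and 12 with scan day as a random block. Cacna2d1 in adult against old rats turned from −0.38 to 0.16 with quantile normalization. The cause was not tested.

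With each rat left out in turn, 3 to 4 genes of the set were called in newborn against adult, 4 to 6 in newborn against old and 4 in adult against old rats. The pathway genes called then ranged from 41 to 47, from 39 to 43 and from 13 to 18. Under the other settings, beside scaling, the genes of the set called ranged from 3 to 6, from 4 to 6 and from 3 to 5. Fn1 was lost in adult against old rats in the methods' t-test alone. Thbs1 and Vcan were called only when the filter was widened to transcripts expressed in at least 1 group or dropped. Taking the mean over probes moved Ltbp3 in adult against old rats to −0.05. Postn lost its call in newborn against adult rats with slide or scan day as a random block, with litter means as replicates and in the methods' t-test.

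No paired analysis was possible because each rat belongs to 1 group only. Adult rats had scan days of their own, and newborn rats had no second side. The sex of the pups is unrecorded, whereas the adult and old rats were males. With 4 adult and 4 old rats, small differences cannot be resolved, and levels near the floor depend on background correction.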
